A study of Mus musculus with 24 samples.

Results

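The genes described are 32 genes of cholesterol and fatty acid synthesis: the enzymes from acetyl-CoA to cholesterol, the proteins that sense and carry sterols, and the enzymes that make, lengthen and desaturate fatty acids. They were chosen by name, and every probe of the array whose gene symbol was one of them was taken, with older names matched through the Entrez gene number. The table held probes for 17872 genes, of which 10419 were tested. It held 39 probes for 29 of the 32 genes and none for Mvk, Fdft1 or Tm7sf2. Fasn, the fatty acid synthase, was not detected on any array, so 28 genes were tested. Of these, 15 were detected on all 24 arrays, while Sc5d, a sterol desaturase, was detected on only 2.

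RNA was measured in CD4+ T cells of WT mice and of mice lacking BAF180 (Pbrm1), a subunit of the PBAF chromatin remodeling complex, in 4 states with 3 arrays per state and genotype. Resting Naïve cells were CD4+ CD62L+ cells isolated to 95% purity from mice of 4 to 6 weeks of age, and stimulated Naïve cells had been kept for 24 h with plate-bound anti-CD3 (1 µg/ml) and anti-CD28 (2 µg/ml). Resting Th2 cells had been differentiated on the same antibodies with IL-4 (10 ng/ml) and anti-IFNγ (10 µg/ml), with IL-2 (100 U/ml) from 24 h on, and stimulated Th2 cells were such cells after 1.5 h of PMA (50 ng/ml) and ionomycin (500 ng/ml). The BAF180-deficient mice carried a floxed Pbrm1 gene and a Cre transgene driven by CD4 regulatory elements, which acts late in thymocyte development, so only T cells were targeted. The labels give the strain as Balb/c, whereas the methods describe floxed mice kept on a mixed genetic background before the cross to the Cre line. The study states that the mice behind the arrays were taken in pairs, a WT with a BAF180-deficient animal, whereas the labels give only a letter (A, B or C) and do not tie it to a mouse. P-values rest on the spread between the 3 arrays within a group, pooled over all 8 groups in 1 model.

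Cells make cholesterol from acetyl-CoA by way of mevalonate, farnesyl diphosphate, squalene and lanosterol, and fatty acids from acetyl-CoA by way of malonyl-CoA. The genes of both routes are classical targets of the SREBP transcription factors (Srebf1 and Srebf2), which are escorted by Scap to the Golgi for cleavage when sterols are low and are held in the endoplasmic reticulum by the Insig proteins when sterols are high. T cells are known to switch on this program when they are activated, since dividing cells need new membrane.

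The arrays differed in more than this pathway. Between 8047 and 10689 of the 25697 probes were detected per array, and the mean intensity ran from 85.3 to 265, with the lowest values in resting Naïve cells. The Pbrm1 probe was lower in BAF180-deficient cells, with a log2 difference from WT of -1.01 in resting Naïve (adjusted p = 0.12), -1.63 in stimulated Naïve (adjusted p = 0.0075), -1.86 in resting Th2 (adjusted p = 0.0010) and -1.42 in stimulated Th2 cells (adjusted p = 0.014). The T cell markers were present in every group, and the summed intensity of the Th2 markers was 18649 to 21039 in stimulated Th2 cells, against 291 to 2630 elsewhere, resting Th2 cells included. The 5 naive T cell markers summed to 2732 to 3589 in resting Naïve and 2939 to 3719 in resting Th2 cells of WT mice. In stimulated WT Naïve cells they summed to 392 to 625. The 5 activation markers summed to 3168 to 4493 in resting and 2244 to 3328 in stimulated WT Naïve cells. Among these Cd69 was lower after stimulation (10.4 against 11.9), while Il2ra, Tnfrsf4, Tnfrsf9 and Myc were higher. Resting Naïve arrays also carried RNA of other cells. The summed intensity of the 6 myeloid markers measured, of 7 listed, was 1232 to 3796 in WT and 1486 to 1879 in BAF180-deficient resting Naïve cells, against 29.1 to 160 in the other 6 groups. In those groups Lyz2, Cd14 and Fcgr3 were detected on 0 arrays, whereas Csf1r was still detected on 2 or 3 arrays of each group at means of 4.66 to 4.90, Cd68 on 0 to 3 at 4.38 to 4.89, and Adgre1 on 0 arrays of stimulated Naïve cells but on 2 or 3 of each Th2 group at 5.32 to 6.06. All 6 were higher in resting Naïve cells, at 6.17 to 9.76. For the 6 B cell markers the sums were 370 to 1089 in resting Naïve cells and 22.4 to 473 elsewhere. Of the 2 CD8 T cell markers, Cd8a was detected on 0 arrays and Cd8b1 on all 24, with the highest group mean, 8.57, in resting WT Naïve cells.

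Promoter sequence is shown for members that rose on stimulation of Naïve cells, and for Insig1, whose brightest probe did not pass that test. It is shown because SREBP acts through sterol regulatory elements together with NF-Y (CCAAT) and Sp1 (GGGCGG) sites, and because E boxes (CACGTG) are also bound. A window of 250 bases before to 50 bases after the transcription start was found in RefSeq (GRCm38.p6) for 25 of the 32 members, 22 of which were tested. The stretches below are the 200 bases before the start, 5′ to 3′ on the gene's strand, with matches in capitals, on either strand, to the sterol element (searched as TCACNCCAC), the NF-Y box CCAAT, the Sp1 box GGGCGG and the E box CACGTG. In the stretches shown no match overlapped another.
Hmgcs1 (chr13:119690151-119690350, plus strand): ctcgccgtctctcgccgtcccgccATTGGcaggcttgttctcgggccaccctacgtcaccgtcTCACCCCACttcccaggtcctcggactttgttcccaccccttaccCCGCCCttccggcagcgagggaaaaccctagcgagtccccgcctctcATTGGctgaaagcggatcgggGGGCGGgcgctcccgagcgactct
Lss (chr10:76531405-76531604, plus strand): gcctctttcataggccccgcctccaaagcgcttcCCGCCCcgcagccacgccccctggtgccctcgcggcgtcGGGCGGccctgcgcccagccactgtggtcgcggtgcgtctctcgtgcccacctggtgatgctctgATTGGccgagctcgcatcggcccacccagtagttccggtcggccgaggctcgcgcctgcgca
Cyp51 (chr5:4104698-4104897, minus strand): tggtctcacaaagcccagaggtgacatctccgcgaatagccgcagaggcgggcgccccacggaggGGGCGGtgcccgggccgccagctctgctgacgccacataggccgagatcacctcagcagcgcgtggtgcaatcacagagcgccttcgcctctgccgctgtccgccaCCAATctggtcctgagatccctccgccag
Sc4mol (chr8:64733579-64733778, minus strand): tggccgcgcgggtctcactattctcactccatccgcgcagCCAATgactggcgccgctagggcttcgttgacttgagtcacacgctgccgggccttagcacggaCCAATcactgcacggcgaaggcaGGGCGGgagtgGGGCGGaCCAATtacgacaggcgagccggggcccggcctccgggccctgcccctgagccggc
Insig1 (chr5:28071212-28071411, plus strand): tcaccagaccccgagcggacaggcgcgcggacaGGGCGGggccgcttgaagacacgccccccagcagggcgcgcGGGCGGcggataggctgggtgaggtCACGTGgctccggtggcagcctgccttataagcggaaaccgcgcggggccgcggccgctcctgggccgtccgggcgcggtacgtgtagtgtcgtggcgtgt
Elovl6 (chr3:129532186-129532385, plus strand): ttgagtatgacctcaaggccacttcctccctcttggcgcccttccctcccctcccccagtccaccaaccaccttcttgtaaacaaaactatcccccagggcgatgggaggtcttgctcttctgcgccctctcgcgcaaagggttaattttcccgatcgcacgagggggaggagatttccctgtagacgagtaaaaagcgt

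Hmgcs1, the synthase of HMG-CoA, held in capitals the only match to TCACNCCAC among the 25 members with a window, between a pair of CCAAT matches, where 1.39% of the 8259 tested genes with a window held one. Of the 22 tested members, 17 held CCAAT, against 43.9% of the tested genes, 19 held GGGCGG, against 65.2%, and 5 held CACGTG, against 11.4%. Sc4mol (now Msmo1), which removes methyl groups from lanosterol products, held 3 CCAAT and 2 GGGCGG matches in the stretch shown. Insig1 held an E box, and Elovl6 held no match at all in its window. The matches are letters in a window and were not tested as binding sites.

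Stimulation of Naïve cells through CD3 and CD28 raised most of the enzymes from acetyl-CoA to lanosterol, some of those from lanosterol on, and acetyl-CoA carboxylase. In WT cells 15 of the 28 members rose and 0 fell, where 23.3% of all genes tested rose and 21.9% fell. In BAF180-deficient cells 16 rose and 0 fell, against 22.1% and 21.3% of all genes. The criteria of the methods, adapted to the limma values as a size rule (a difference beyond 1.5 SDs of all differences) with a looser adjusted p (below 0.3), took 8 members in each genotype, against 12.8% and 13.2% of all genes. The median difference of the 28 members was 0.66 in WT and 0.67 in BAF180-deficient cells on the log2 scale, and that of all genes -0.01 in both. Since some members were kept only because they were seen in activated cells, the 15 members detected on every array were counted apart: 9 rose and 0 fell in each genotype. The shares among all genes detected on every array were not counted. Values below are log2 intensities after background correction and normalization, so that a difference of 1 is a 2-fold change, and each difference is given with its standard error and an adjusted p from limma.

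Lss, the cyclase that makes lanosterol, was at 4.58, 4.85 and 4.71 in the A, B and C arrays of resting WT cells and at 6.36, 7.28 and 6.92 after stimulation. It rose by 2.14 ± 0.25 (4.42-fold, adjusted p = 5.6e-07), and no array of the groups overlapped, although it was detected on only 1 of the 3 resting arrays. Acaca, the acetyl-CoA carboxylase that commits carbon to fatty acids, went from 6.81, 6.81 and 6.45 to 8.40, 9.50 and 8.74. It had the largest difference of the 28 members in WT cells, 2.19 ± 0.25 (4.57-fold, adjusted p = 5.3e-07), and rose by 1.81 ± 0.25 in BAF180-deficient cells (adjusted p = 6.4e-06). Cyp51, which demethylates lanosterol, went from 6.95, 6.72 and 6.55 to 8.57, 8.93 and 8.64. This was a rise of 1.97 ± 0.31 (adjusted p = 2.6e-05), again with no overlap.

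Of the 6 tested genes from acetyl-CoA to farnesyl diphosphate, 5 rose in each genotype. Acat2, the thiolase of the first step, rose by 1.76 ± 0.34 in WT cells (adjusted p = 0.00024), and Fdps, which makes farnesyl diphosphate, by 1.71 ± 0.26 (adjusted p = 2e-05). Pmvk, a mevalonate pathway kinase, was not detected on any resting WT array and was at least 1.56-fold higher after stimulation (group means 5.50 against 4.57, adjusted p = 0.0017). Idi1, the isomerase of the prenyl building blocks, was likewise undetected in resting cells and was at least 1.25-fold higher in WT (5.18 against 4.65, adjusted p = 0.031) and at least 1.35-fold higher in BAF180-deficient cells (5.24 against 4.45, adjusted p = 0.0022). Hmgcs1 stood at 9.97, 9.78 and 9.65 in resting WT arrays and at 10.97, 11.35 and 11.03 after stimulation. The groups did not overlap, but its rise of 1.32 ± 0.52 passed the test only just (adjusted p = 0.046) and lost the call in all 6 fits that left out 1 array. Its spread over replicates elsewhere, described below, enters the shared error, and with the replicate letter as a block the adjusted p was 0.0072. Mvd, the decarboxylase of the pathway, did not pass the test (0.21 ± 0.38).

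Both tested genes from squalene to lanosterol rose in each genotype. Sqle, the squalene epoxidase, stood at 7.90, 7.94 and 8.30 in resting and at 9.85, 10.04 and 9.59 in stimulated WT cells, and rose by 1.78 ± 0.36 (adjusted p = 0.00035). From lanosterol to cholesterol 3 of 7 rose, namely Cyp51, Sc4mol (1.88 ± 0.53, adjusted p = 0.0065) and the ketosteroid reductase Hsd17b7 (1.23 ± 0.32, adjusted p = 0.0040). Later enzymes did not pass the test: Ebp, the sterol isomerase, gave 0.37 ± 0.23 and Dhcr7, the last reductase, 0.52 ± 0.25. For Nsdhl, a sterol dehydrogenase, the brightest of 4 probes gave 0.04 ± 0.22, whereas 1 dimmer probe, undetected in resting cells, was at least 1.26-fold higher (adjusted p = 0.033).

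Among the sensing and transport genes, the sterol carrier Stard4 rose by 1.21 ± 0.34 in WT cells (adjusted p = 0.0060) and Srebf1 by 0.62 ± 0.17 (adjusted p = 0.0044). Srebf2 gave -0.23 ± 0.27, Scap 0.38 ± 0.26 and Insig2 0.15 ± 0.24, none past the test. The 3 probes of Insig1, itself a well-known SREBP target, disagreed. The brightest gave 0.49 ± 0.30 (adjusted p = 0.20), while the dimmest was undetected in resting cells and was at least 2.19-fold higher after stimulation in WT (5.99 against 4.54, adjusted p = 3.6e-06) and at least 2.29-fold higher in BAF180-deficient cells (6.01 against 4.54, adjusted p = 3.4e-06).

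The fatty acid branch was uneven. The elongase Elovl6 went from 5.41, 4.99 and 4.97 to 6.60, 6.19 and 7.08 in WT cells, a rise of 1.50 ± 0.26 (adjusted p = 8.2e-05), and the desaturase Fads1 rose by 0.86 ± 0.21 (adjusted p = 0.0018). Acly, the citrate lyase that supplies cytosolic acetyl-CoA, stood at 11.49, 10.87 and 11.14 before and 11.07, 11.54 and 11.16 after stimulation. Its groups overlapped and its difference was 0.09 ± 0.20, with an interval of -0.32 to 0.50. The desaturase Scd1 gave -0.31 ± 0.46, and Fads2 was detected on 0 of 3 resting and 1 of 3 stimulated WT arrays. Scd2, undetected in resting cells, was at least 1.01-fold higher in WT (4.88 against 4.19, adjusted p = 0.051; 0.038 with the letter as a block) and at least 1.43-fold higher in BAF180-deficient cells (5.33 against 4.20, adjusted p = 0.0026).

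Other RNA moved with this comparison. Of 11 tested cell cycle genes, 10 rose in WT cells with a median of 2.13, and the summed intensity of the myeloid markers was 29.1 to 53.5 in stimulated against 1232 to 3796 in resting Naïve cells. Their part in the differences of the members was not tested. In bulk RNA, fewer cells of a type and less RNA per cell cannot be told apart. Of the calls in WT cells, 13 held in all 6 fits that left out 1 array, all but Hmgcs1 and Idi1, and of those in BAF180-deficient cells 11 did.

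**Figure D1:**
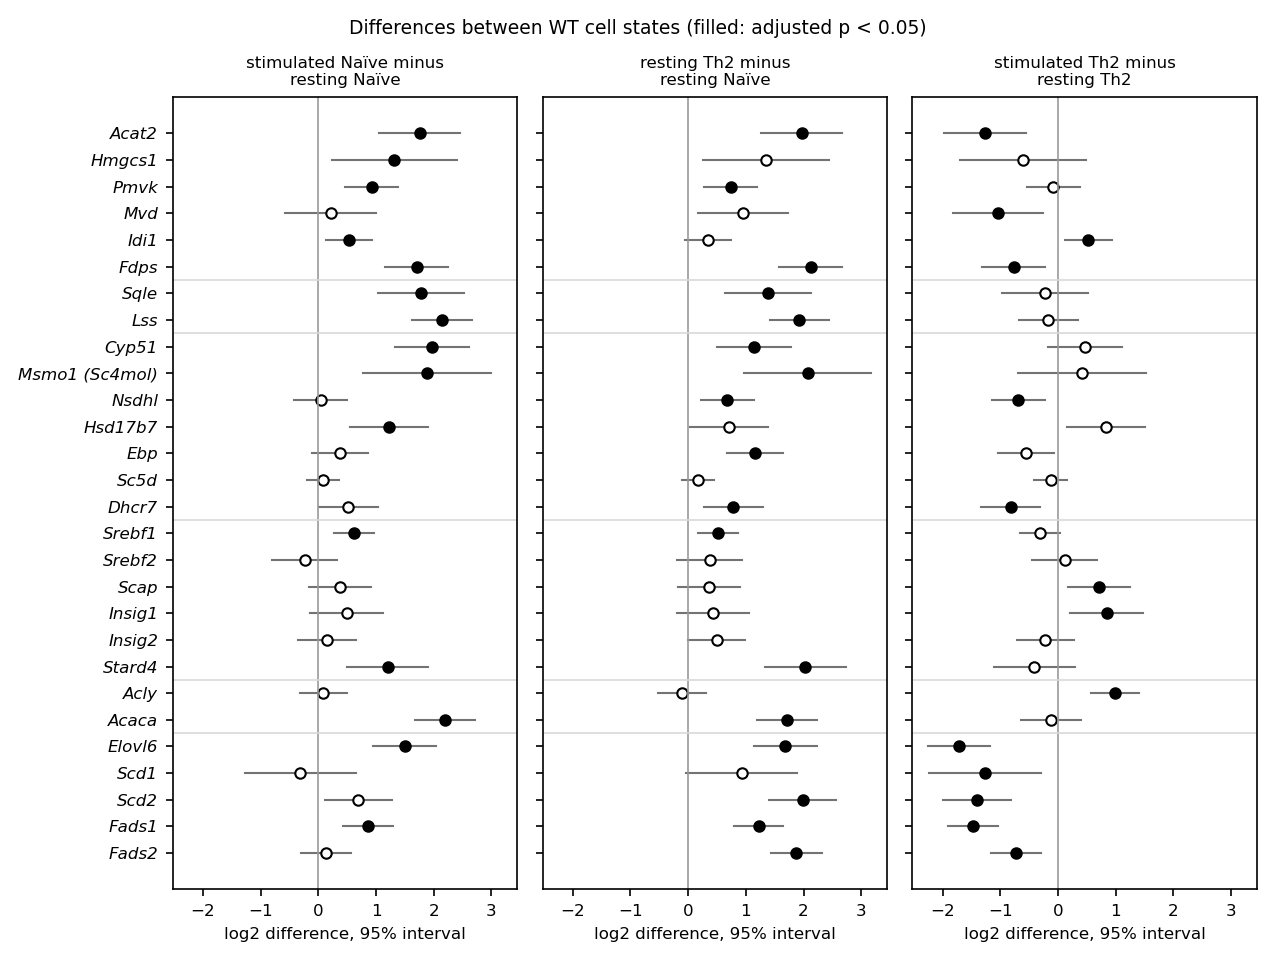
Differences of the 28 tested members in WT cells in 3 comparisons of states, as log2 difference with 95% intervals, with filled points for adjusted p below 0.05. After stimulation of Naïve cells the filled points lie to the right of 0, up to 2.19 for Acaca, and after stimulation of Th2 cells most lie to the left, down to -1.71 for Elovl6.

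Short stimulation of Th2 cells with PMA and ionomycin changed members in both directions. The elongation and desaturation enzymes fell in WT cells, Acly rose in both genotypes, and the sterol enzymes were split. In WT cells 4 members rose and 10 fell, where 12.5% of all genes rose and 15.9% fell. The members' share of 14.3% higher was thus near that of all genes, and their share of 35.7% lower was above it. In BAF180-deficient cells 3 rose and 5 fell, against 11.7% and 15.4%, so that the members' shares of 10.7% and 17.9% were near those of all genes. Among the 15 members detected on every array, 2 rose and 3 fell in WT (median -0.22) and 2 rose and 1 fell in BAF180-deficient cells (median 0.17). Shares of all genes detected on every array were not counted here either. The criteria of the methods took 5 members in each genotype, against 11.3% and 11.1% of all genes. The median over the 28 members was -0.26 in WT and -0.13 in BAF180-deficient cells, against -0.01 for all genes in both.

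All 5 elongation and desaturation genes fell in WT cells and 3 of the 5 in BAF180-deficient cells. Elovl6 went from 6.91, 7.01 and 6.51 in resting to 4.44, 5.60 and 5.27 in stimulated WT Th2 cells, and from 7.04, 7.30 and 6.67 to 4.85, 4.73 and 4.95 in BAF180-deficient cells. The groups did not overlap in either genotype, and the difference was -1.71 ± 0.26 in WT (adjusted p = 3.6e-05) and -2.16 ± 0.26 in BAF180-deficient cells (adjusted p = 2.7e-06). Fads1 went from 9.66, 9.90 and 9.14 to 8.04, 8.26 and 7.97 in WT cells and from 9.15, 9.58 and 8.67 to 8.08, 8.16 and 8.01 in BAF180-deficient cells. It differed by -1.48 ± 0.21 (adjusted p = 1.3e-05) and -1.05 ± 0.21 (adjusted p = 0.00059), with no overlap in either. Scd2, a desaturase, went from 6.10, 6.61 and 5.82 to 4.31, 5.17 and 4.83 in WT cells. Its difference was -1.40 ± 0.28 (adjusted p = 0.00061) there and -0.85 ± 0.28 in BAF180-deficient cells (adjusted p = 0.029). Scd1 differed by -1.26 ± 0.46 (adjusted p = 0.047) in WT and by -1.05 ± 0.46 (adjusted p = 0.11; 0.0041 with the letter as a block) in BAF180-deficient cells. Fads2 fell by 0.73 ± 0.21 in WT cells (adjusted p = 0.012), with overlapping groups, and gave -0.40 ± 0.21 in BAF180-deficient cells. Scd1 and Scd2 are close relatives, and whether their probes share signal was not tested.

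Acly went from 11.23, 11.20 and 10.77 to 12.18, 11.77 and 12.21 in WT cells and from 10.60, 11.11 and 10.56 to 12.01, 12.32 and 12.05 in BAF180-deficient cells. The stimulated arrays lay above all resting ones in both genotypes. It rose by 0.99 ± 0.20 (1.98-fold, adjusted p = 0.00065) and by 1.37 ± 0.20 (2.58-fold, adjusted p = 2.5e-05). Insig1 rose by 0.84 ± 0.30 in WT (adjusted p = 0.042) and by 1.03 ± 0.30 in BAF180-deficient cells (adjusted p = 0.015), and here its other probes rose too, the dimmest by 1.25 in WT and by 1.43 in BAF180-deficient cells. Scap rose by 0.71 ± 0.26 in WT (adjusted p = 0.048) and 0.72 ± 0.26 in BAF180-deficient cells (adjusted p = 0.046). Srebf2 gave 0.12 ± 0.27 and Srebf1 -0.30 ± 0.17 in WT cells.

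Of the early sterol genes in WT cells, Acat2 (-1.27 ± 0.34, adjusted p = 0.0071), Mvd (-1.04 ± 0.38, adjusted p = 0.045) and Fdps (-0.76 ± 0.26, adjusted p = 0.034) fell, while Idi1 rose by 0.53 ± 0.19 (adjusted p = 0.049). Acat2 also fell in BAF180-deficient cells (-1.44 ± 0.34, adjusted p = 0.0029), from 7.02, 7.27 and 6.99 to 6.13, 5.55 and 5.29. Mvd in those cells gave -0.81 ± 0.38 (adjusted p = 0.13; 0.033 with the letter as a block). Acat2 has a near relative, Acat3, and whether the probe reads both was not tested. Late in the pathway Dhcr7 fell in WT (-0.82 ± 0.25, adjusted p = 0.016) and BAF180-deficient cells (-0.75 ± 0.25, adjusted p = 0.029). Nsdhl fell in WT cells (-0.69 ± 0.22, adjusted p = 0.024), as did its other 3 probes. Ebp gave -0.56 ± 0.23 in WT (adjusted p = 0.081; 0.021 with the letter as a block) and -0.50 ± 0.23 in BAF180-deficient cells (adjusted p = 0.13; 0.040 with the block). Lss, Sqle, Cyp51 and Sc4mol, which rose strongly in Naïve cells, gave differences of -0.17, -0.22, 0.46 and 0.42 in WT Th2 cells, none past the test.

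These counts rested on few arrays. The WT count of 14 became 6 without stimulated replicate A, 8 without resting replicate B and 9 without stimulated replicate B or C, and the BAF180-deficient count of 8 became 5 without stimulated replicate A or B or resting replicate B. The calls that held whichever array was left out were those of Acly, Elovl6, Fads1 and Scd2 in WT cells and Acat2, Acly, Elovl6 and Fads1 in BAF180-deficient cells. Of the 11 cell cycle genes, 6 fell and 0 rose in WT cells, with a median of -0.75, and the part of this in the members' falls was not tested.

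**Figure D2:**
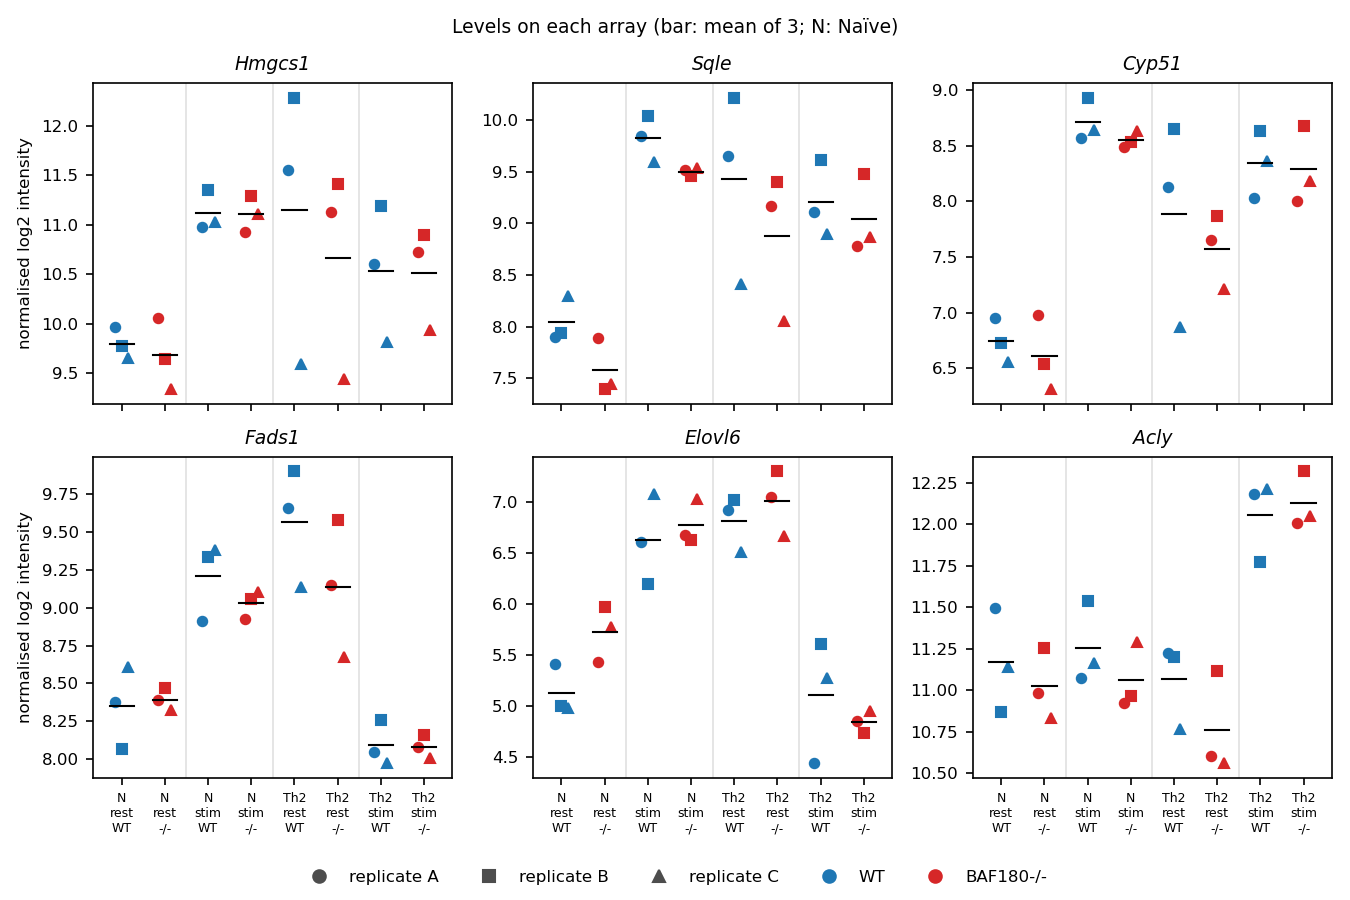
Log2 intensity of Hmgcs1, Sqle, Cyp51, Fads1, Elovl6 and Acly on each of the 24 arrays, by state and genotype, with the replicate letter as the symbol. Elovl6 and Fads1 drop in stimulated Th2 cells while Acly rises, and the C arrays of resting Th2 cells stand low for Hmgcs1, at 9.60 in WT and 9.44 in BAF180-deficient cells.

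Resting Th2 cells, compared with the Naïve cells they were grown from, were higher in most of the pathway, with the largest WT differences in Fdps, Sc4mol and Stard4. Against resting Naïve cells 17 of the 28 members were higher and 0 lower in WT, where 17.9% of all genes were higher and 17.6% lower. In BAF180-deficient cells 15 were higher and 0 lower, against 18.2% and 17.5%. The criteria of the methods took 11 members in WT and 10 in BAF180-deficient cells, against 10.8% and 11% of all genes. The median over the members was 1.04 in WT and 0.72 in BAF180-deficient cells, against 0.00 for all genes. Among the 15 members detected on every array, 8 were higher in WT and 9 in BAF180-deficient cells, with 0 lower, and the shares of all such genes were not counted.

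Fdps stood at 8.65, 8.44 and 8.73 in resting Naïve and at 10.55, 11.37 and 10.27 in resting Th2 cells of WT mice. It was higher by 2.12 ± 0.26 (4.36-fold, adjusted p = 2.5e-06), the largest of the members in WT cells. Stard4, at 5.88, 6.38 and 6.49 in Naïve and 8.03, 8.70 and 8.12 in Th2 cells, was higher by 2.03 ± 0.34 (adjusted p = 8.6e-05). Neither gene overlapped between the states. Sc4mol (2.07 ± 0.53, adjusted p = 0.0047), Acat2 (1.97 ± 0.34, adjusted p = 0.00012), Lss (1.92 ± 0.25, adjusted p = 4.1e-06) and Acaca (1.71 ± 0.25, adjusted p = 2.1e-05) were among the other large differences.

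Of the 5 elongation and desaturation genes 4 were higher in Th2 cells in each genotype. Scd2 was undetected on every resting Naïve array and stood at 6.10, 6.61 and 5.82 in WT Th2 cells, at least 2.49-fold higher (6.17 against 4.19, adjusted p = 1.3e-05). Fads2 was likewise undetected in resting Naïve cells and stood at 5.96, 6.66 and 5.75 in WT Th2 cells, at least 2.40-fold higher (6.12 against 4.24, adjusted p = 6.7e-07). In BAF180-deficient cells the bounds were 2.05-fold for Scd2 (5.85 against 4.20) and 1.71-fold for Fads2 (5.59 against 4.20). Elovl6 was higher by 1.69 ± 0.26 in WT and 1.28 ± 0.26 in BAF180-deficient cells, and Fads1 by 1.22 ± 0.21 and 0.74 ± 0.21, each past the test. Acly again did not pass the test, at -0.10 ± 0.20 in WT and -0.26 ± 0.20 in BAF180-deficient cells.

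The late enzyme Ebp was higher by 1.16 ± 0.23 in WT (adjusted p = 0.00058) and 1.03 ± 0.23 in BAF180-deficient cells (adjusted p = 0.0016). For Insig1, the brightest probe gave 0.43 ± 0.30 in WT cells while the dimmest was at least 1.98-fold higher (5.84 against 4.54, adjusted p = 2.4e-05). Insig2 passed in BAF180-deficient cells (0.62 ± 0.24, adjusted p = 0.049) but not with the letter as a block (0.053), and another of its probes gave -0.00 ± 0.11. Several genes passed only with the block, namely Hmgcs1 (1.35 ± 0.52, adjusted p = 0.051; 0.0083 with the block), Mvd (0.95 ± 0.38, 0.056; 0.010) and Scd1 (0.93 ± 0.46, 0.13; 0.0077) in WT cells. Hmgcs1 did so in BAF180-deficient cells too (0.98 ± 0.52, adjusted p = 0.15; 0.047 with the block). Calls of 12 members in WT and 10 in BAF180-deficient cells held in all 6 fits that left out 1 array. As in the stimulation of Naïve cells, 10 of 11 cell cycle genes were higher in WT Th2 cells, and the resting Naïve arrays carried the myeloid and B cell RNA given above. The part of either was not tested.

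Set against stimulated Naïve cells, few members were called, with shares higher near those of all genes. Of the members in WT cells, 4 were higher in resting Th2 cells and 0 were lower, where the shares of all genes were 11.4% and 12.1%, and in BAF180-deficient cells 2 were higher and 1 lower, against 10.9% and 11.1%. The members' shares higher, 14.3% in WT and 7.1% in BAF180-deficient cells, were thus near those of all genes. Their shares lower, 0% and 3.6%, were below them. By the criteria of the methods 3 members were called in WT and 2 in BAF180-deficient cells, against 12% and 11.6% of all genes. Fads2 was at 4.26, 4.30 and 4.57 in stimulated Naïve and 5.96, 6.66 and 5.75 in resting Th2 cells of WT mice. It was higher without overlap, by 1.74 ± 0.21 in WT (adjusted p = 3.8e-06) and 1.18 ± 0.21 in BAF180-deficient cells (adjusted p = 0.00033). Scd2 (1.30 ± 0.28, adjusted p = 0.0017), Ebp (0.78 ± 0.23, adjusted p = 0.018) and Nsdhl (0.64 ± 0.22, adjusted p = 0.043) were the others in WT cells. Ebp was also higher in BAF180-deficient cells (0.88 ± 0.23, adjusted p = 0.0087). Cyp51 was the 1 member that was lower there (-0.97 ± 0.31, adjusted p = 0.029), and in WT cells it gave -0.83 ± 0.31 (adjusted p = 0.059; 0.028 with the block). Scd1 gave 1.24 ± 0.46 in WT cells (adjusted p = 0.059; 0.0012 with the block). Under median scaling the WT split was 2 higher and 2 lower, and the BAF180-deficient split 1 and 2. Leaving out 1 array gave 3 to 5 members in WT and 2 to 4 in BAF180-deficient cells, and the calls of Fads2 and Scd2 in WT and of Fads2 in BAF180-deficient cells held throughout.

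**Figure D3:**
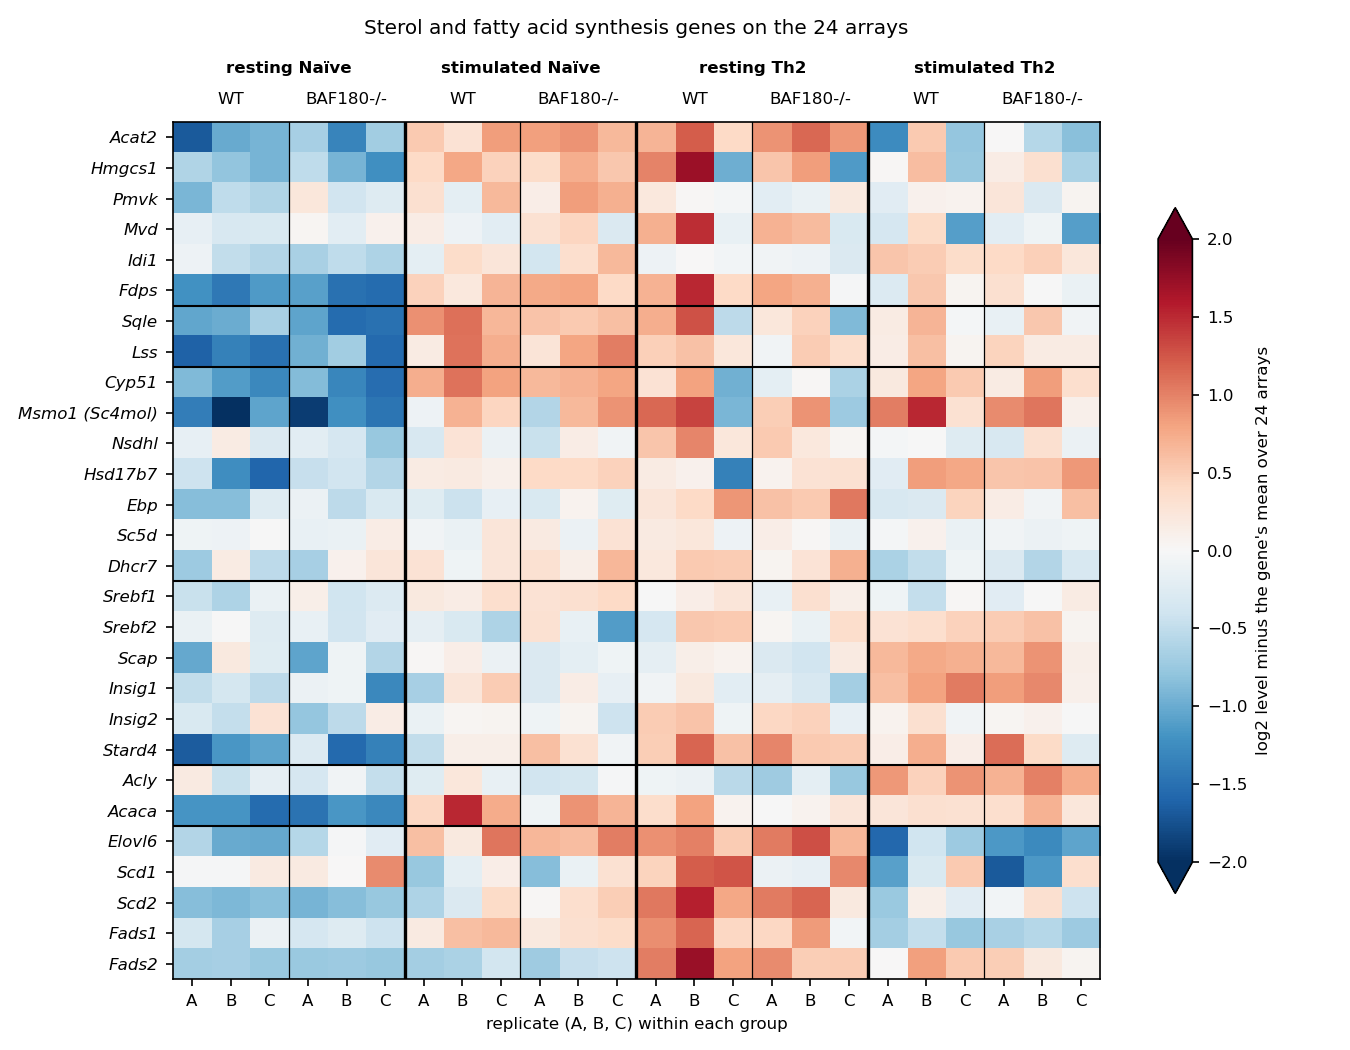
Log2 intensity of the 28 tested members on the 24 arrays, each gene shown as the difference from its own mean over all arrays, with members in rows by role and arrays in columns by state, genotype and letter. Resting Naïve arrays are low in most rows, and the C arrays of resting Th2 cells are lower than A and B in many sterol rows.

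Within resting Th2 cells replicates differed widely in these genes, and the same letter was low in both genotypes. In WT cells replicate C was the lowest of the 3 arrays for 20 of the 28 members, and in BAF180-deficient cells for 17, where 35.3% and 37.6% of all genes were lowest in C. In both genotypes at once C was lowest for 15 members, and the share of all genes for this rule was not counted. Hmgcs1 stood at 11.56, 12.28 and 9.60 in the A, B and C arrays of WT cells and at 11.13, 11.41 and 9.44 in BAF180-deficient cells. Its C array thus differed from the mean of A and B by -2.32 and -1.83. Sc4mol stood at 8.42, 8.62 and 6.36 in WT and at 7.76, 8.17 and 6.54 in BAF180-deficient cells, and Sqle at 9.66, 10.22 and 8.41 and at 9.17, 9.41 and 8.05. For Mvd the same difference was -1.24 and -0.97. Not every member followed. Scd1 was highest in C in both genotypes, at 7.53 and 7.23, and Hsd17b7 was low in C in WT cells only (6.73, against 8.38 in BAF180-deficient cells). The median SD of the members in WT resting Th2 cells was 0.373, against 0.179 for all genes.

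C was also lowest in both genotypes for 6 members in stimulated Th2 cells, among them Hmgcs1, Mvd and Sc4mol, and for 6 in resting Naïve cells. The C array of Hmgcs1 differed from the mean of A and B by -1.08 in WT and -0.87 in BAF180-deficient stimulated Th2 cells. In stimulated Naïve cells the low letter was A, which was lowest in both genotypes for 13 members, among them Acaca, Lss, Cyp51, Hmgcs1 and Sc4mol. The share of all genes lowest in a letter in both genotypes was not counted for any state, so how far other genes followed is not known. If a letter is a pair of mice, as the study's wording would allow, the mice, their cultures and the handling of the arrays cannot be told apart. Without both C arrays of resting Th2 cells, an alternative chosen after seeing the data, Hmgcs1 was higher in WT resting Th2 than in resting Naïve cells by 2.12 ± 0.33 (adjusted p = 8.9e-05) and Mvd by 1.36 ± 0.35 (adjusted p = 0.0061). The count of members higher became 19 in WT and 16 in BAF180-deficient cells. For this fit the shares of all genes were not counted, neither here nor for the stimulation of Th2 cells. For the stimulation of Th2 cells, Hmgcs1 (-1.38 ± 0.33, adjusted p = 0.0045) and Sqle (-0.73 ± 0.24, adjusted p = 0.034) then fell in WT cells, with 1 member higher and 11 lower. The C arrays of stimulated Th2 cells stayed in this fit, so the letters were not balanced between the states. In WT cells the stimulated C array was itself low for Hmgcs1, as given above, and for Sqle, which differed there by -0.46. The part of this in the falls was not tested.

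Between BAF180-deficient and WT cells no member passed the test. In each of the 4 states, in their mean and in the 3 tests of whether the genotypes differed in their response to stimulation or in their Th2 against Naïve difference, limma called 0 of the 28 members in either direction. Few of all genes were called either. The shares higher and lower in BAF180-deficient cells were 0.048% and 0.0576% in resting Naïve, 0.0096% and 0.0192% in stimulated Naïve, 0.0096% and 0.0288% in resting Th2 and 0% and 0.0288% in stimulated Th2 cells, and 0.144% and 0.23% for the mean of the 4 states. For the interactions they were 0.0096% and 0% with stimulation of Naïve cells, 0% and 0% with stimulation of Th2 cells and 0.0096% and 0% with the Th2 against Naïve difference. At an unadjusted p below 0.05 there were 2 members in resting Naïve, 0 in stimulated Naïve, 2 in resting Th2 and 0 in stimulated Th2 cells, 2 in the mean of the 4 states and 0 in each interaction. The same rule took 7.2%, 2.31%, 3.58% and 2.87% of all genes in the 4 states in this order, 8.09% in their mean, and 2.27%, 1.79% and 2.86% in the interactions with stimulation of Naïve cells, with stimulation of Th2 cells and with the Th2 against Naïve difference.

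In resting Naïve cells these were Elovl6, at 5.41, 4.99 and 4.97 in WT and 5.43, 5.97 and 5.77 in BAF180-deficient cells (0.60 ± 0.26, adjusted p = 0.68), and Pmvk, which was undetected in WT and at least 1.19-fold higher in BAF180-deficient cells (5.10 against 4.57, adjusted p = 0.65). In resting Th2 cells they were the fatty acid desaturases Fads2 (-0.53 ± 0.21) and Fads1 (-0.43 ± 0.21), both with overlapping groups and an adjusted p of 1. Over the 4 states Hsd17b7 differed by 0.42 ± 0.16 (adjusted p = 0.46) and Sqle by -0.38 ± 0.18 (adjusted p = 0.65). Sqle in stimulated Naïve cells was at 9.85, 10.04 and 9.59 in WT and at 9.51, 9.46 and 9.53 in BAF180-deficient cells, without overlap, yet its difference there was -0.33 with an interval of -1.07 to 0.42. The 95% intervals of the 28 members reached from -1.21 to 1.30 in resting Naïve, -1.13 to 1.09 in stimulated Naïve, -1.71 to 1.27 in resting Th2 and -1.50 to 1.07 in stimulated Th2 cells, so that a 2-fold difference lay within the interval for the members that varied most.

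In resting Th2 cells 24 of the 28 members lay below 0 in the comparison of BAF180-deficient with WT cells, with a median of -0.24, where 50.6% of all genes lay above 0. The members share arrays and vary together, so no p is given for this count. It leaned most on 1 array: without WT replicate B, the array with the highest Hmgcs1, 18 members lay below 0 with a median of -0.04, and without BAF180-deficient replicate C 20 did with a median of -0.12. Without WT replicate A 24 lay below 0 (median -0.21), and without WT replicate C 23 (-0.38). Without BAF180-deficient replicate A it was 22 (-0.23), and without replicate B 24 (-0.29). Without the C arrays of both genotypes, chosen after seeing the data, 23 lay below 0 (-0.31). Under median scaling 21 lay below 0, with a median of -0.09. The interaction with Th2 stimulation, which uses the same resting arrays, lay above 0 for 25 of 28 members with a median of 0.18, and for 49.6% of all genes. Under median scaling this was 14 of 28, and without resting WT replicate B 15 of 28. The CD8 T cell marker Cd8b1 leaned the same way in resting Th2 cells, at 7.02 ± 0.88 in BAF180-deficient and 7.98 ± 0.39 in WT cells (SD, n = 3 each; difference -0.95 ± 0.43, adjusted p = 1.00 from limma), and its part in the members' values was not tested. Cd8b1 lay below 0 elsewhere too, at -0.14 in resting Naïve, -0.79 in stimulated Naïve and -0.70 in stimulated Th2 cells, none past the test. In the other states the members were split, with 15 above 0 in resting Naïve, 17 in stimulated Naïve and 12 in stimulated Th2 cells, where 50.6%, 51.5% and 50.8% of all genes lay above 0.

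**Figure D4:**
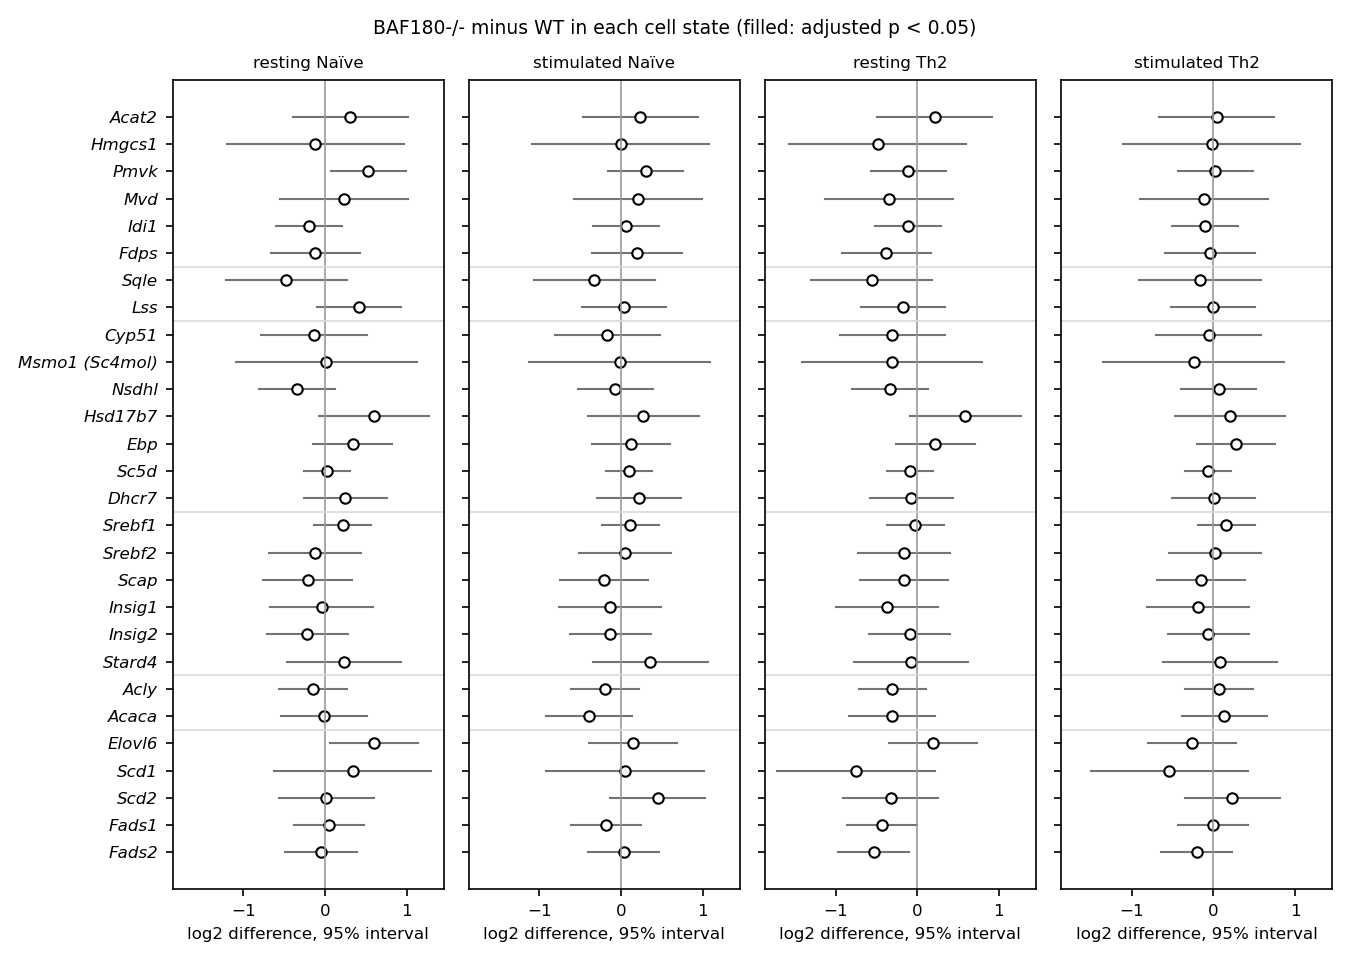
Differences between BAF180-deficient and WT cells for the 28 tested members in each of the 4 states, as log2 difference with 95% intervals. Of 28 members, 24 lie below 0 in resting Th2 cells, and none is past the test in any state.

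Genes around the pathway were read from lists of other lipid genes. Among 21 tested genes of sterol uptake, transport and storage, 4 rose and 7 fell in WT Naïve cells on stimulation, where 23.3% of all genes rose and 21.9% fell. Tmem97, a sterol-regulated membrane protein, rose by 3.00 ± 0.23 (adjusted p = 1.7e-09), while the oxysterol receptor LXRα (Nr1h3) went undetected and was at least 8.26-fold lower (4.37 against 7.70, adjusted p = 1.4e-11). In resting Th2 cells the cholesterol exporter Abcg1 was lower than in resting Naïve cells (-2.33 ± 0.17, adjusted p = 2.3e-09). Nr1h3 and Abcg1 are also macrophage genes, the myeloid RNA of the resting Naïve arrays moved with both, and its part was not tested. Of 10 genes of SREBP processing, 1 rose and 3 fell on stimulation of WT Naïve cells, against the same 23.3% and 21.9% of all genes. The SREBP protease Mbtps1 was among those that fell (-1.19 ± 0.18, adjusted p = 1.3e-05).

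Of 12 genes of the isoprenoid branch, which draws on farnesyl diphosphate for ubiquinone, dolichol and prenyl groups, 4 rose and 2 fell on stimulation of WT Naïve cells, with Pdss1, a ubiquinone side chain synthase, undetected before and at least 2.63-fold higher after it (6.25 against 4.43, adjusted p = 1.5e-06). Of 22 other genes of fatty acid and glycerolipid synthesis 8 rose and 4 fell in the same comparison. For both lists the shares of all genes were 23.3% higher and 21.9% lower. The elongase Elovl1 rose by 1.47 ± 0.17 (adjusted p = 5.5e-07) and the acetyl-CoA synthetase Acss2, which makes acetyl-CoA from acetate, fell by 2.28 ± 0.31 (adjusted p = 4.1e-06). In stimulated WT Th2 cells 3 of these 22 rose and 4 fell, shares near the 12.5% and 15.9% of all genes, among the latter the elongase Elovl5 (-2.54 ± 0.28, adjusted p = 6.4e-07) and Acss2 (-2.41 ± 0.31, adjusted p = 4.2e-06). Of 15 genes of fatty acid oxidation 1 rose and 7 fell there, with a median of -0.50, among them Acadm, an acyl-CoA dehydrogenase (-1.24 ± 0.23, adjusted p = 0.00038). By genotype, 1 gene of these lists was called, the oxysterol-binding protein gene Osbpl2, which was lower in BAF180-deficient cells over the 4 states (-0.46 ± 0.08, adjusted p = 0.0075).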

How the data were processed

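The authors hybridized labelled cRNA to Illumina MouseRef-8 v2 arrays and deposited, from GenomeStudio 1.6.0, the mean bead intensity of each probe without normalization, and a detection p-value against negative control probes. Here the deposited intensities were processed by neqc of limma 3.58.1 (R 4.3.3), which takes the background from the detection p-values, adds an offset (16), moves to the log2 scale and quantile normalizes. Probes detected (p up to 0.02) on any array entered the tests, 14246 in all, and a gene was read by its brightest kept probe. A model with 8 group means (lmFit, eBayes) was fitted to all arrays, with 16 residual degrees of freedom, 20.3 after moderation, and a median standard error of 0.193. P-values were adjusted by Benjamini-Hochberg over the kept probes, and a gene was called at an adjusted p below 0.05. The methods' criteria (a Z-ratio beyond 1.5, an FDR below 0.3 and a p below 0.05) were adapted to the limma values, with the difference over the SD of all differences as the Z-ratio. A further criterion, a background-corrected intensity above 0, was not applied, since normexp values are all above 0. A probe undetected on all arrays of a group got a lower bound of its fold. The number of arrays limits the precision. The members, lists and tests were chosen with earlier results of these data known. Arrays of the 2 genotypes with 1 letter deviated together (correlation of deviations 0.30 for A, 0.14 for B and 0.52 for C), and the methods speak of pairs of RNAs, so values with the letter as a block are given where a call changed. The calling was tested on simulated data.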

Additional observations from a re-analysis of the deposited data

How the results depend on the processing

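Counts of members called kept their direction under most settings. With the replicate letter as a block they were, for WT and BAF180-deficient cells, 16 and 16 (stimulation of Naïve cells), 15 and 11 (stimulation of Th2 cells), 20 and 15 (resting Th2 against resting Naïve) and 6 and 3 (resting Th2 against stimulated Naïve), and besides the genes named above the block changed no other member's call. The criteria of the methods gave 8 and 8 for stimulation of Naïve cells, 5 and 5 for stimulation of Th2 cells and 11 in WT cells for resting Th2 against resting Naïve. For stimulation of Th2 cells, no detection filter gave 8 and 5, a fit to only the arrays compared 9 in WT, and a difference of at least 1 added to the adjusted p 6 and 5, which with that rule was 2 and 1 for resting Th2 against stimulated Naïve cells. Chosen after seeing the data, a block within each cell type gave 13 in BAF180-deficient Th2 stimulation and 7 in WT resting Th2 against stimulated Naïve cells, and leaving out the C arrays of resting Th2 cells gave 5 in the BAF180-deficient comparison of the latter. Leaving out 1 array gave 13 to 16 and 11 to 15, 6 to 10 and 5 to 9, 14 to 19 and 11 to 16, and 3 to 5 and 2 to 4 in the same order, and 0 to 0 for every genotype comparison and interaction. Median scaling moved the median of all genes by between -0.19 (BAF180-deficient resting Th2 against stimulated Naïve) and 0.18 (BAF180-deficient Th2 stimulation). The share of higher among called genes went from 51.5% to 62.8% in WT and 50.9% to 61.6% in BAF180-deficient Naïve stimulation, from 44.1% to 54.9% in WT Th2 stimulation and from 48.5% to 37.2% in WT resting Th2 against stimulated Naïve cells. It also turned Sc5d, near background, from 0.05 to -0.70 (adjusted p = 0.020) in BAF180-deficient resting Th2 against resting Naïve cells. The cause of these changes was not tested. A block by slide was not run. With 3 arrays per group, members near background give bounds only.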
